A study of Mus musculus with 2 samples.

Results

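The Kupffer cell identity genes are 10 genes by which the resident macrophages of the liver are recognized, *Clec4f*, *Vsig4*, *Timd4*, *Cd5l*, *Marco*, *Adgre1*, *Csf1r*, *Cd163*, *Id3* and *Spic*. They were taken by name from 2 arrays of primary mouse hepatocytes, with every probe that carries one of these names, which gave 13 probes of 56605 for 10 of 37074 gene names. The control cells came from *Drp1*flox/flox littermates without Cre, which the labels call wild type, and the *Drp1*LiKO cells from *Alb-Cre* Tg/+ *Drp1*flox/flox mice, all on a C57BL/6 background and, per the study's methods, fed ad libitum before isolation. *Alb-Cre* acts in cells that express albumin, so the deletion of *Drp1*, a gene needed for mitochondrial fission, is directed to hepatocytes and not to macrophages, whose own *Drp1* is left in place. Livers were digested with collagenase, the suspension was spun at 50 g for 1 min, the pelleted cells were plated on collagen with serum and insulin, floating cells were discarded after 4 h, and RNA was taken 24 h after seeding without any treatment. The number and the age of the mice behind each array are not given in the sources used here. The comparison asks which transcripts differ in cultured hepatocytes once *Drp1* is deleted.

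Kupffer cells lie in the sinusoids of the liver, where they take up bacteria, complement-coated particles, aged red cells and dying cells from the blood. Their identity is set by transcription factors, among them ID3, SPIC, the nuclear receptor LXRα and MAF proteins, and is upheld by signals of their neighbors, with CSF1 and IL-34 acting on the receptor CSF1R, and with Notch ligands, TGF-β and bone morphogenetic proteins coming from endothelial and stellate cells. CLEC4F and TIMD4 are known from resident Kupffer cells rather than from monocytes, whereas CSF1R, the surface protein ADGRE1 and MARCO are shared with other macrophages and ID3 with many cell types.

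Each genotype had 1 array, so no test was made and no value has a replicate error. The values describe these 2 arrays, and their number limits the precision. Both arrays lay on 1 slide read in 1 scan. The signal is the background-subtracted intensity of a probe, and the log2 ratio is *Drp1*LiKO minus control after the 75th percentile of each array, 313 in control against 356 in *Drp1*LiKO cells, had been subtracted. A signal not well above background was set to at least the lowest signal that was, 18.2 in control against 15.0 in *Drp1*LiKO cells. Its ratio is a bound within this processing, written "at least". A gene was described by its brightest probe and called higher or lower past a Z score of 2, the threshold of the study, which corresponded here to a log2 ratio of 1.30 or -1.31. The targeted gene, listed as *Dnm1l*, had a signal of 2602 in control against 1217 in *Drp1*LiKO cells at its brightest probe, a log2 ratio of -1.28 and a Z score of -1.95. The only error used here is the noise between spots, taken from the probes nearest in signal among those printed 10 times. It says nothing of the spread between mice.

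Of the 10 genes, 8 had a probe well above background on at least 1 array. All 8 were well above background in *Drp1*LiKO cells and 5 in control cells, whereas *Timd4* and *Cd163* were not in either. *Marco*, *Cd5l*, *Adgre1*, *Clec4f* and *Vsig4* were higher in *Drp1*LiKO cells past the threshold. *Csf1r* and *Spic* had ratios above 0 short of it, and *Id3* had a ratio of -0.30. Thus 5 of 8 detected members were higher and 0 lower, beside 3.5% of all 20165 detected genes higher and 2.81% lower. *Clec4f*, *Vsig4* and *Spic* passed the filter on dim signals through the *Drp1*LiKO array alone, as did 9.09% of all detected genes, so the filter itself favored a ratio above 0 for them and their calls are given as a description. Among members well above background on both arrays, 3 of 5 were higher, beside 3.49% of all such genes. The paper lists these 3, *Marco*, *Cd5l* and *Adgre1*, among its upregulated immune genes. The members were chosen with earlier results of these data known, so this share too is a description. In RNA from a whole culture, more cells of a type and more RNA per cell cannot be told apart.

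**Figure D1:**
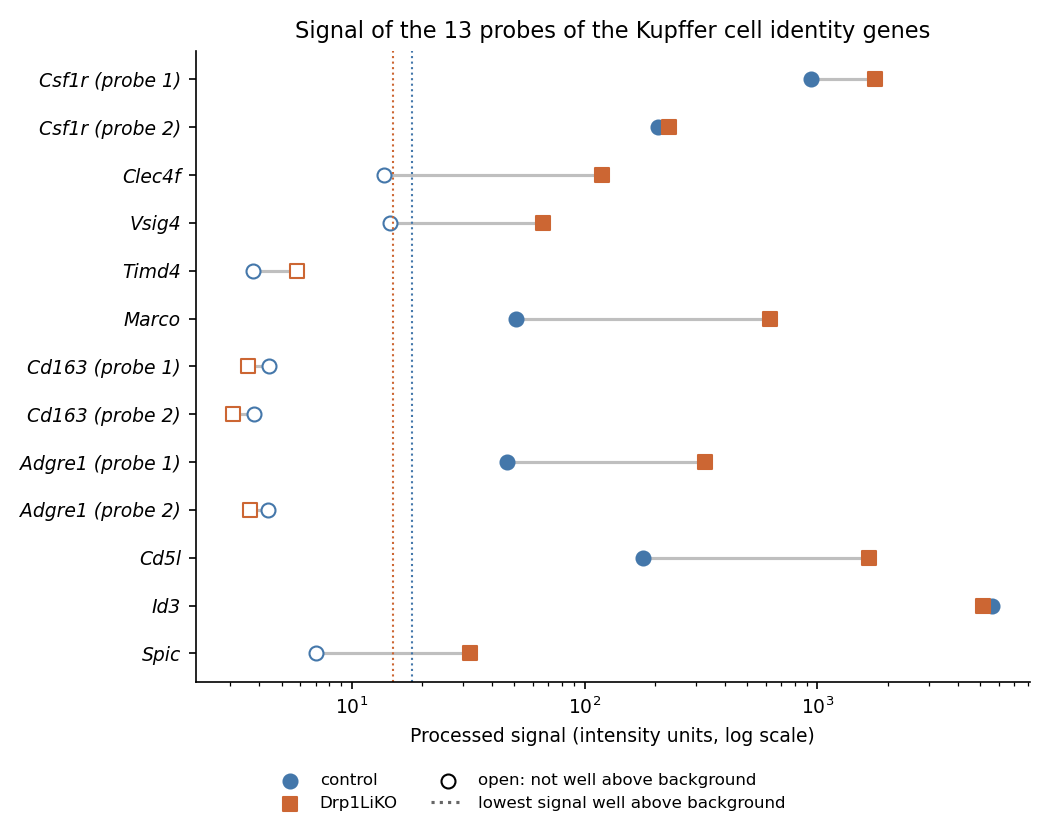
Processed signal (log scale) of the 13 probes of the Kupffer cell identity genes in control (circles) and *Drp1*LiKO cells (squares), 1 array each, with open symbols for signals not well above background and dotted lines at the lowest signal that was, 18.2 in control against 15.0 in *Drp1*LiKO cells. Where a gene has more than 1 probe, probe 1 is the brighter in *Drp1*LiKO cells. The points of *Marco*, *Adgre1* probe 1 and *Cd5l* lie far apart with both symbols filled, those of *Id3* nearly coincide, and those of *Timd4*, *Cd163* and *Adgre1* probe 2 lie to the left of both lines.

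*Csf1r* (NM_001037859) encodes the receptor for CSF1 and IL-34, on which macrophages depend for survival. It had 2 probes, both well above background on both arrays. The brighter, at 61290725 to 61290784 of chromosome 18 (mm9), had a signal of 942 in control against 1773 in *Drp1*LiKO cells, with a log2 ratio of 0.73 (1.66-fold), a spot noise of 0.11 and a Z score of 1.13. The other, 12064 bases upstream from 61278661 to 61278720, had 206 in control against 231 in *Drp1*LiKO cells, with a log2 ratio of -0.02 and a spot noise of 0.15. One probe thus differed by more than the noise between spots and the other did not, and the median of the probes was 0.36. No annotation of mm9 was used here, so the exon of a probe is not given.

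The receptors for uptake parted into a group with a signal and a group without. *Marco* (NM_010766) encodes a scavenger receptor that binds bacteria. Its probe, at 122371115 to 122371134 on chromosome 1 as the file gives it, had a signal of 50.7 in control against 628 in *Drp1*LiKO cells, with a log2 ratio of 3.45 (10.9-fold), a spot noise of 0.23 and a Z score of 5.30. In these values it was the highest ratio among the members, above those of 99.8% of detected genes. Before any correction the spot had a mean intensity of 119 over a local background of 59 in control against 677 over 56 in *Drp1*LiKO cells, so the step was visible in the raw spot. In the table of normalized values the same probe stood at 57.4 and 287, and its log2 ratio there was 2.32.

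*Clec4f* (NM_016751) encodes a C-type lectin of Kupffer cells that binds desialylated glycans. Its probe on chromosome 6 (83595281 to 83595339) had a signal of 13.7 in control cells, not well above background, and 119 in *Drp1*LiKO cells. The difference was at least 5.75-fold in this processing (log2 ratio 2.52, Z score 3.88). It was 2.20-fold with normexp background correction and 4.08-fold in the table of normalized values. The raw spot had 84.7 over 58 in control against 198 over 56 in *Drp1*LiKO cells. *Vsig4* (NM_177789) encodes CRIg, the receptor that clears particles coated with complement C3b. Its probe on chromosome X (93443157 to 93443216) had 14.7 in control cells, not well above background, and 66.4 in *Drp1*LiKO cells, at least 3.21-fold higher (log2 ratio 1.68, Z score 2.59). The raw values were 81.9 over 60 and 132 over 58. The call of *Vsig4* was lost with normexp background correction (log2 ratio 0.53, Z score 1.38), in the table of normalized values (1.24, Z score 1.89) and where the Z score was taken within bins of like signal (1.58).

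The sequences of the *Clec4f* and *Vsig4* probes, as the files give them, are shown since both genes are told from background on 1 array only and rest on 1 probe each. Another 60-mer, from *Adgre1*, is shown since it had no signal where another probe of that gene did.
Clec4f: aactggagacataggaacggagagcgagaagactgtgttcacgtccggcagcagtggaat
Vsig4: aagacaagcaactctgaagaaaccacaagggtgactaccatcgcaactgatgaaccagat
Adgre1: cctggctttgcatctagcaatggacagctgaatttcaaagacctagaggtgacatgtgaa

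*Timd4* (NM_178759) encodes a receptor for phosphatidylserine on dying cells and is a marker of long-lived resident Kupffer cells. Its probe on chromosome 11 (46657173 to 46657232) had 3.77 in control against 5.82 in *Drp1*LiKO cells, not well above background on either array, and the raw spots had 71.0 over 59 and 72.1 over 57. *Cd163* (NM_053094) encodes the receptor for hemoglobin bound to haptoglobin. Its probes on chromosome 6, at 124280484 to 124280543 and 124270436 to 124270495, had 4.43 and 3.81 in control against 3.58 and 3.11 in *Drp1*LiKO cells, none well above background. No ratio is given for either gene, and a level under the detection limit of the array cannot be told from none. The GC content of the 13 probes ran from 31.7% to 55.0%, and the lowest was that of a *Cd163* probe.

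*Adgre1* (NM_010130) encodes the adhesion receptor ADGRE1, the surface protein by which mouse macrophages are commonly stained. The probe at 57622843 to 57622902 of chromosome 17 read 46.4 in control against 330 in *Drp1*LiKO cells, with a log2 ratio of 2.65 (6.27-fold), a spot noise of 0.23 and a Z score of 4.07. The probe shown above, 72622 bases upstream from 57550221 to 57550280, had 4.39 and 3.65, not well above background on either array. The call therefore rests on 1 of 2 probes, and which transcripts each of them detects was not tested.

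*Cd5l* (NM_009690) encodes AIM, a protein that tissue macrophages secrete into the blood and that supports their survival. Its probe on chromosome 3 (87174823 to 87174882) had a signal of 177 in control against 1667 in *Drp1*LiKO cells, with a log2 ratio of 3.05 (8.28-fold), a spot noise of 0.14 and a Z score of 4.69. *Cd5l* was well above background on both arrays, so its ratio is no bound, and it was above those of 99.6% of detected genes.

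Neither transcription regulator passed the threshold in the values as reported, and the ratio of *Spic* is a bound. *Id3* (NM_008321) encodes an inhibitor of basic helix-loop-helix factors that Kupffer cells need for their development, and it is also expressed in many other cells. Its probe on chromosome 4 (135700075 to 135700249) had 5606 in control against 5160 in *Drp1*LiKO cells, with a log2 ratio of -0.30 (1.23-fold lower, spot noise 0.10) and a Z score of -0.45, with 22.1% of detected genes lower. *Spic* (NM_011461) encodes an Ets factor that heme induces in macrophages that recycle iron. Its probe on chromosome 10 (88138053 to 88138112) had 7.03 in control, not well above background, and 32.3 in *Drp1*LiKO cells, at least 1.56-fold higher (log2 ratio 0.65, Z score 1.00). With the processed signals kept as they were, without a floor, the log2 ratio of *Spic* was 2.02 and its Z score 2.20, past the threshold, while with normexp it was 0.07.

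Among the 5 members measured on both arrays the order of the ratios was *Marco*, *Cd5l*, *Adgre1*, *Csf1r* and *Id3*. *Marco* and *Cd5l* differed by 0.40 on the log2 scale with a spot noise of 0.27, and so did *Cd5l* and *Adgre1* with 0.26, so that these 3 stood close together. Their order turned with the processing, since with normexp *Cd5l* (2.63) came before *Marco* (2.42), and in the table of normalized values *Cd5l* (2.82) came before *Adgre1* (2.33) and *Marco* (2.32). At the brighter probe of *Csf1r*, *Adgre1* exceeded *Csf1r* by 1.92 and *Csf1r* exceeded *Id3* by 1.03, several times the noise between spots. The other probe of *Csf1r* had a log2 ratio of -0.02, nearer to that of *Id3*, and spot noise does not cover differences between probes. The median log2 ratio of the 8 detected members was 2.10 (4.30-fold), that of the 5 measured on both arrays was 2.65, and that of all detected genes was -0.05. Of the 8, 7 had a ratio above 0, beside 44.5% of all detected genes, and 5 were at least 2-fold higher, beside 5.32%. *Clec4f* and *Vsig4* are in both counts and *Spic* in the first, and the filter favored a ratio above 0 for them. These counts are therefore a description. Summed over the 8, the signal was 6859 in control against 9776 in *Drp1*LiKO cells, most of it from *Id3*. Without *Id3* it was 1252 and 4616, which was 3.25-fold higher after scaling.

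**Figure D2:**
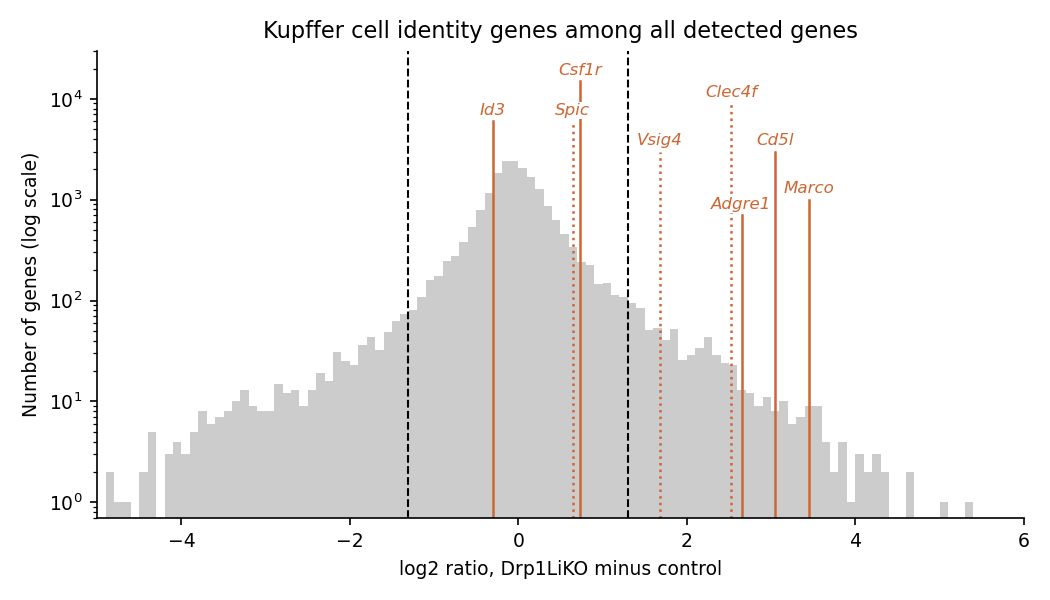
Log2 ratios of all 20165 detected genes in bins (gray bars, number of genes on a log scale), with a vertical line at the ratio of each of the 8 detected Kupffer cell identity genes, dotted where it is a bound, and dashed black lines at a Z score of 2 in either direction (1.30 and -1.31). The lines of *Vsig4*, *Clec4f*, *Adgre1*, *Cd5l* and *Marco* stand to the right of the upper threshold, and those of *Spic*, *Csf1r* and *Id3* stand between the thresholds. The heights of the lines carry no value.

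Promoters were searched for 2 short motifs of factors known in macrophages, GAGGAA, the core that the Ets factors PU.1 and SPIC bind, and TGCTGA, part of the site of MAF factors, on both strands of the 250 bases before the start of a gene. RefSeq promoters of GRCm38.p6 were used for 8 members, without *Adgre1* and *Csf1r*. GAGGAA was found in 4 of 8 (*Cd5l*, *Marco*, *Vsig4* and *Id3*), beside 23.3% of all 32851 promoters. TGCTGA was found in 4 of 8 (*Cd5l*, *Clec4f*, *Spic* and *Timd4*), beside 16.1% of all. No match of one motif overlapped a match of the other in these promoters. The promoters of the 4 members with 1 probe each that were higher are printed with the motifs in capitals, and a motif on the opposite strand reads TTCCTC or TCAGCA. They run 5′ to 3′ toward the start of the gene, and lie at chr3:87357631-87357880 on the plus strand (*Cd5l*), and on the minus strand at chr1:120505025-120505274 (*Marco*), chr6:83656117-83656366 (*Clec4f*) and chrX:96293439-96293688 (*Vsig4*).
Cd5l: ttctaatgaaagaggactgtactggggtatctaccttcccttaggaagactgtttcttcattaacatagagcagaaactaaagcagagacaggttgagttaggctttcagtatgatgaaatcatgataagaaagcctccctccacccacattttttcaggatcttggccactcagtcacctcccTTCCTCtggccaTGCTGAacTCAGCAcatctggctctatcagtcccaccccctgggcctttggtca
Marco: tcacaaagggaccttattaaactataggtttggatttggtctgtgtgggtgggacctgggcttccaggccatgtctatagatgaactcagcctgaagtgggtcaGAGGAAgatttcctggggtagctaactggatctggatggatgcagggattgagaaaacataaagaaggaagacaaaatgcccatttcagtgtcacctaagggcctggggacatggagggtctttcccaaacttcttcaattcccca
Clec4f: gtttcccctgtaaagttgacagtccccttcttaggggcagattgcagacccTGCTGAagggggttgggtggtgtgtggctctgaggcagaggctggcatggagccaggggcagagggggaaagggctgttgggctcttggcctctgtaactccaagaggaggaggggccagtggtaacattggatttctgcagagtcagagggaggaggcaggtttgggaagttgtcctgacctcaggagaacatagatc
Vsig4: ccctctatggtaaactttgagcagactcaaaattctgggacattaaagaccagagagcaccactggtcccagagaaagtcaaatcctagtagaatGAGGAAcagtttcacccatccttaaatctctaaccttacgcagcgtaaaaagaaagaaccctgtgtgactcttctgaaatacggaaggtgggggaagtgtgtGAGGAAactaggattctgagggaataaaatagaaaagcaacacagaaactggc

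The *Cd5l* promoter held both motifs, with GAGGAA 66 bases before the start and the matches of TGCTGA facing each other at 54 and 46 bases. *Marco* had 1 match of GAGGAA at 146 bases and *Vsig4* had 2, at 155 and 53 bases. *Clec4f* had TGCTGA alone, at 199 bases. *Id3*, which was not higher, had 2 matches of GAGGAA at 208 and 201 bases, and *Timd4*, which was not detected, had 2 of TGCTGA at 150 and 44 bases. The motifs thus occurred in members on both sides of the threshold. A match of letters is a description and no proof that a factor binds.

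The signals that keep Kupffer cells in their niche were measured on the same arrays. Of 9 ligands, 7 were detected, 0 were higher and 1 was lower, with a median log2 ratio of 0.36. The 1 was *Csf1*, the ligand of CSF1R. It had 7960 in control against 2411 in *Drp1*LiKO cells, 3.75-fold lower (log2 ratio -1.91, Z score -2.91), and its 3 probes ranged from -1.91 to -1.15. With the median of its probes in place of the brightest its log2 ratio was -1.20, short of the threshold (Z score -1.83). *Il34*, the other ligand of that receptor, had 133 and 194 (log2 ratio 0.36). Side by side, the ratio of the receptor was above 0 at its brighter probe and that of its ligand CSF1 was below.

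Of the other ligands, *Tgfb1* had 401 in control against 286 in *Drp1*LiKO cells (log2 ratio -0.67). *Bmp2* had 109 and 234 (0.93) and *Bmp6* 210 and 218 (-0.13). *Gdf2*, which encodes BMP9, was at least 1.97-fold higher and *Dll1*, a Notch ligand, at least 1.30-fold, each not well above background in control cells. None of these 5 passed the threshold. *Dll4* and *Bmp10* were not well above background on either array. Over the ligands measured on both arrays the median was -0.13, so the sign of this list's median turned with the filter.

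Of 11 transcription factors of Kupffer cells and other macrophages, 10 were detected, 1 was higher and 0 were lower, with a median log2 ratio of 0.18. *Maf*, one of the large MAF factors, was the one past the threshold, with 48.9 in control against 140 in *Drp1*LiKO cells (log2 ratio 1.34, Z score 2.06). It passed it in 6 of 10 settings, and its other detected probe had 0.59. *Irf8*, a factor of the myeloid lineage, had 93.8 and 251 (1.23, Z score 1.90). *Spi1*, which encodes PU.1, was not well above background on either array (6.77 and 7.16).

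*Nr1h3*, which encodes LXRα and is also expressed by hepatocytes, had 3303 in control against 3529 in *Drp1*LiKO cells (log2 ratio -0.09). *Id1*, a relative of *Id3*, had 12623 and 9555 (-0.58), the lowest ratio of the list. *Zeb2* had 0.41, *Runx1* 0.29, *Smad4* 0.06 and *Rbpj*, the effector of Notch signaling, -0.12 on the log2 scale. *Tfec* was above background in *Drp1*LiKO cells alone, at 19.6, and near the floor. Of the ratios near 0, that of *Rbpj* had the opposite sign in 1 of 10 settings.

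Other genes known from Kupffer cells went the way of the receptors in part. Of 11, all were detected, 5 were higher and 0 lower, beside 3.5% and 2.81% of all detected genes. Their median log2 ratio was 1.29. The 5 were the complement genes *C1qa*, *C1qb* and *C1qc*, the ficolin *Fcna* and the folate receptor *Folr2*. *C1qa* had 73.6 in control against 516 in *Drp1*LiKO cells (log2 ratio 2.63), *C1qb* 72.0 and 408 (2.32) and *C1qc* 139 and 917 (2.53). *Fcna* had 28.1 and 173 (2.44), and *Folr2* had 81.4 and 417 (2.17). All 5 passed the threshold in 10 of 10 settings.

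The mannose receptor *Mrc1* was at least 2.45-fold higher, just short of the threshold (Z score 1.99). *Il18bp*, an inhibitor of interleukin-18, had 270 in control against 634 in *Drp1*LiKO cells (log2 ratio 1.05), and the complement gene *C6* had 99.4 and 212 (0.91). *Hmox1*, which degrades heme, had 4452 and 9615 (0.93), but its log2 ratio in the table of normalized values was -2.81, the opposite direction. *Siglec1* had 20.5 and 27.1 (0.22), and the iron exporter *Slc40a1* 1840 and 2074 (-0.01), and both changed sign in other settings. In these ratios *Hmox1* and *Slc40a1* thus stayed short of the threshold, as *Spic* did.

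**Figure D3:**
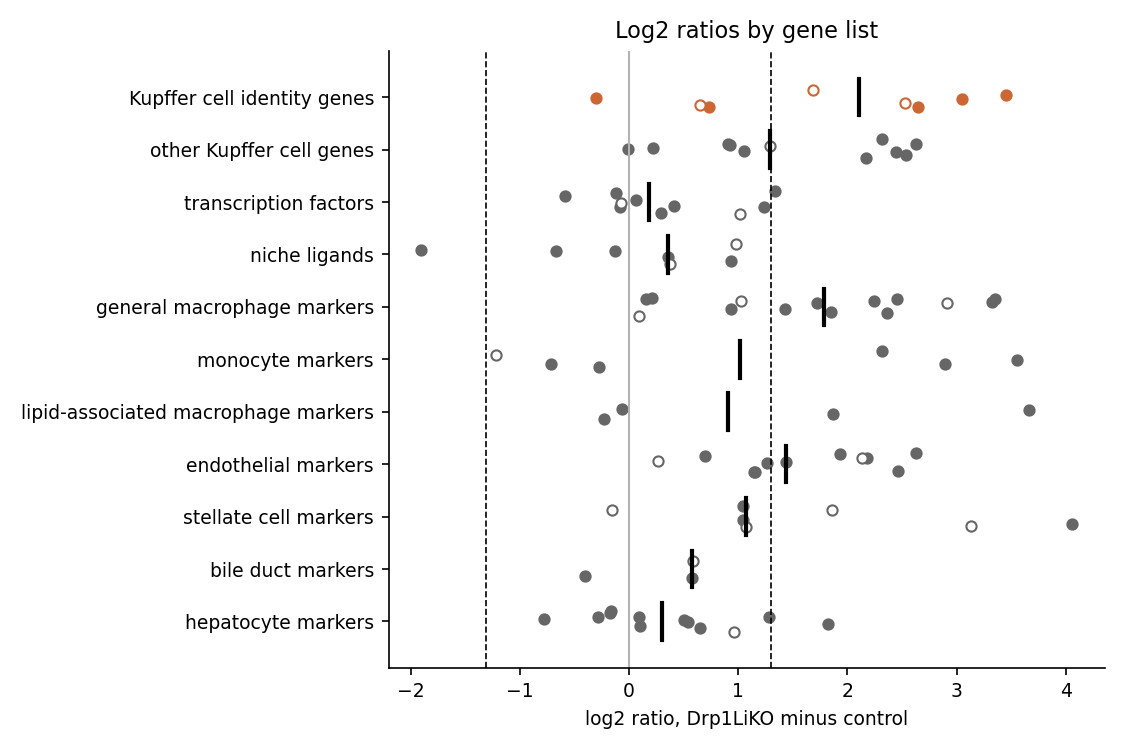
Log2 ratio of each detected gene (points, open where the ratio is a bound) by gene list, with the median of each list (thick black line), 0 (gray line) and a Z score of 2 in either direction (dashed lines). Vertical scatter within a list carries no value. The median of the Kupffer cell identity genes lies at 2.10, that of the general macrophage markers at 1.79, that of the endothelial markers at 1.44, that of the stellate cell markers at 1.07 and that of the hepatocyte markers at 0.30.

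Markers of other cells moved in the same direction. Of 14 general macrophage markers, 14 were detected, 9 were higher and 0 lower, beside 3.5% and 2.81% of all detected genes. The same shares stand beside the counts of the lists that follow. The 14 had a median of 1.79 and a summed signal of 11187 in control against 28464 in *Drp1*LiKO cells. Of the 14, 3 passed the filter through the *Drp1*LiKO array alone, *Fcgr1*, *C5ar1* and *Laptm5*, the last being among the 9. The filter itself favored a ratio above 0 for these 3. The highest ratio was that of the protease *Ctss* (147 and 1697, log2 ratio 3.35), the lowest measured on both arrays that of *Ptprc* (0.16), whose 3 detected probes ranged from 0.16 to 1.77, and the brightest gene over both arrays was *Cd14* (6407 and 8419, 0.21). *Cd68*, the brightest in *Drp1*LiKO cells alone, had 2346 and 9593 (1.85). Of 4 lipid-associated macrophage markers 2 were higher, with *Trem2* at 31.3 and 449 (3.66), *Gpnmb* at 455 and 1891 (1.87) and *Fabp5*, the brightest, at -0.23. The members were therefore among many macrophage genes that were higher in this RNA.

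Of 8 monocyte markers, 6 were detected and 3 were higher. *Ly6c2* had 151 in control against 2011 in *Drp1*LiKO cells (log2 ratio 3.55), *Plac8* had 285 against 2404 (2.89) and *Clec12a* 45.6 against 258 (2.31). *Itgam*, the brightest, had -0.28, with the opposite sign in 1 of 10 settings. The chemokine receptors *Ccr2* and *Cx3cr1*, which define monocytes, were not well above background on either array. The summed signal of the detected markers was 4762 in control against 8635 in *Drp1*LiKO cells, with 4132 and 3869 of it from *Itgam*. The median of 1.02 turned to -0.37 without a filter on dim probes. Thus genes of both resident and monocyte-derived macrophages were higher, while *Timd4* of the former and *Ccr2* of the latter gave no signal.

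Of 11 endothelial markers, 11 were detected, 6 were higher and 0 lower, beside 3.5% and 2.81% of all detected genes. The 11 had a median of 1.44 and a summed signal of 4500 in control against 9726 in *Drp1*LiKO cells. Of the 11, 2 passed the filter through the *Drp1*LiKO array alone, *Tek* and *Lyve1*, the latter being among the 6. The filter itself favored a ratio above 0 for both. *Fcgr2b* had the highest ratio (2.63) and *Egfl7*, the brightest, the lowest measured on both arrays (0.70). Of 9 stellate cell markers, 7 were detected and 3 were higher, with a median of 1.07 and a summed signal of 411 and 4585. Of the 7, 4 passed the filter through the *Drp1*LiKO array alone, *Col3a1* and *Pdgfrb* among them. The filter itself favored a ratio above 0 for these 4. Of the 7, 6 had a ratio above 0 and 1 had a ratio below. *Dcn*, the brightest, had 203 in control against 3848 in *Drp1*LiKO cells (4.06), *Col3a1* was at least 8.78-fold and *Pdgfrb* at least 3.63-fold higher, *Reln* had 1.04, and *Lrat* and *Ngfr* were not well above background on either array. The medians of these lists lay in the direction of the Kupffer cell identity genes, with most ratios of the stellate list being bounds. The part of these lists in the result was not tested.

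Lymphocyte markers were detected for 2 of 8 genes and dendritic cell markers for 1 of 5, with 0 higher. *Cd3e* had -0.37, *Ms4a1* was near the floor and *Siglech* had 0.09. Neutrophil markers were detected for 2 of 5 genes with 1 higher, *Ly6g* (at least 3.72-fold), *Csf3r* had 0.17, and *S100a8*, *S100a9* and *Retnlg* were not well above background on either array. Bile duct markers were detected for 3 of 4 genes with 0 higher, from *Krt19* at -0.40 to *Sox9* at 0.58, with *Epcam* not well above background. Of 12 hepatocyte markers, 12 were detected, 1 was higher and 0 lower, with a median of 0.30. *Alb*, the brightest, had 219613 in control against 266703 in *Drp1*LiKO cells (0.10), *Ahsg* had 1.83 and *Cyp2e1* -0.78. Markers of the labelled cell type were thus present on both arrays, with macrophage, endothelial and stellate genes beside them.

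**Figure D4:**
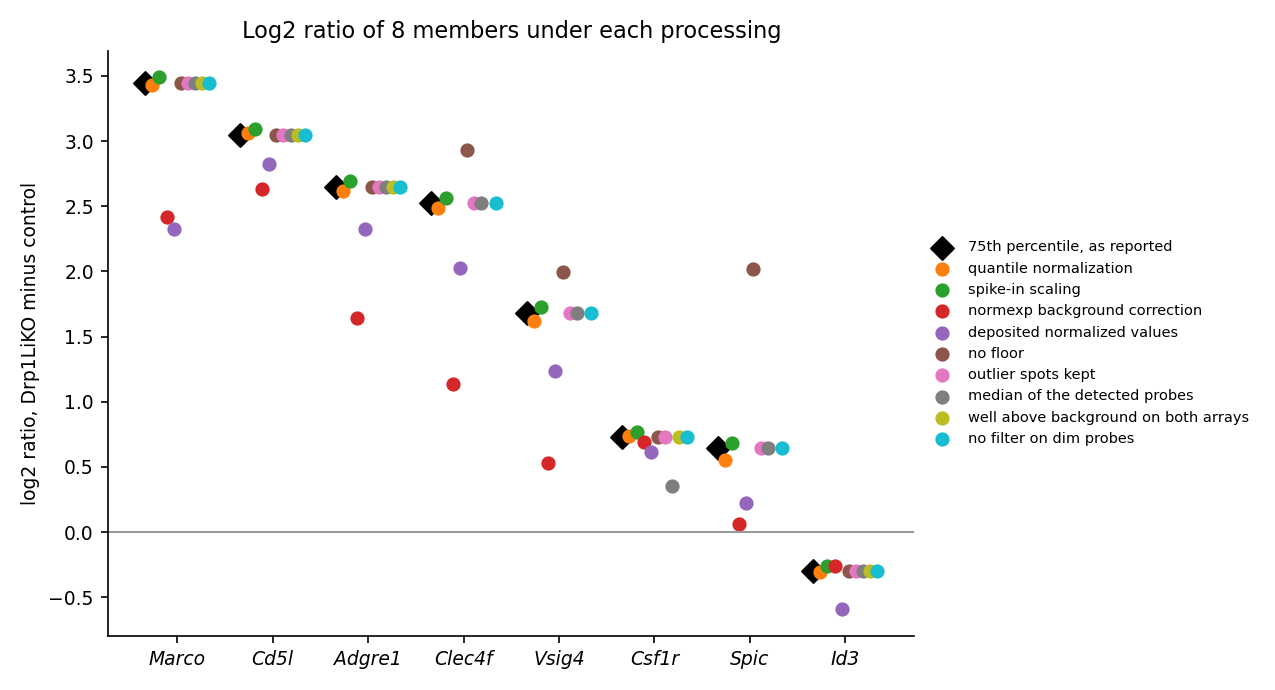
Log2 ratio of each of the 8 detected Kupffer cell identity genes as reported (black diamonds) and under each alternative processing (colored circles). Members not well above background in control cells have no value where both arrays had to be. *Marco*, *Cd5l* and *Adgre1* stay between 1.64 and 3.49, *Spic* spans 0.07 to 2.02, and *Id3* stays below 0.

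*Marco*, *Cd5l* and *Adgre1* passed the threshold in 10 of 10 settings, and *Clec4f* in 9 of 9. The log2 ratio of *Cd5l* ranged from 2.63 to 3.09, that of *Marco* from 2.32 to 3.49, that of *Adgre1* from 1.64 to 2.69 and that of *Clec4f* from 1.14 to 2.93. The lowest values of *Cd5l*, *Adgre1* and *Clec4f* came from normexp, which adds an offset of 50 and draws dim signals together. *Csf1r* ranged from 0.36 to 0.77 and passed the threshold only with a robust Z score (2.11). *Id3* ranged from -0.59 to -0.26 and was past the threshold in none of them.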

How the data were processed

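Primary hepatocyte RNA was labeled with Cy3 and hybridized to 60-mer mouse arrays (SurePrint G3 8x60K v2), 1 per genotype. The authors deposited scanner output per array, in which Feature Extraction (version 9.5.1.1 per the submitters' processing notes; the file header holds another version) gives the raw intensity of each spot, the background around it, and a processed signal freed of background and spatial trend, not normalized between arrays. A deposited table also holds intensities that the authors normalized by a method not given in the sources used here. Sorted, both columns hold the same values within 0.0521%. Ranked over probes, which are no replicates, the *Drp1*LiKO column and the array it belongs to correlated at 0.958 and not at 1.00, so that table served as an alternative only.

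Control spots and outlier spots were left out, processed signals were averaged over the spots of a probe as log2 values, less the 75th percentile of the array. Probes well above background on either array were kept, 30275 in all (48.2% of probes in control and 52.1% in *Drp1*LiKO cells). No spot was saturated. The Z score was taken over these probes, since the study states no reference population. Samples were grouped by their GEO labels. All 10 members and the niche ligands, transcription factors and other Kupffer cell genes were named. For the other lists the text names the highest and the lowest ratio measured on both arrays, the brightest gene and, after their values were seen, some genes that were not detected or that make up a small count. The values of 2 genes of the lists are not reported here. The members and the 13 lists of 111 genes were chosen with earlier results of these data known. Spot noise came from the 10 nearest probes in signal among those printed 10 times. Coordinates of probes are those of the files (mm9). All 10 members and all 111 list genes matched RefSeq symbols or synonyms (GRCm38.p6), and so did 24787 of 37074 names.

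Alternatives were quantile normalization, spike-in scaling, normexp, the deposited table, no floor, outlier spots kept, the median of the probes, 2 filters and 3 thresholds. The steps were tested on simulated data. Python 3.11.15, numpy 2.4.6, pandas 2.3.3, matplotlib 3.10.9, R 4.3.3 and limma 3.58.1 were used.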

Additional observations from a re-analysis of the deposited data

How the results depend on the processing

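The median log2 ratio of the Kupffer cell identity genes (2.10 over 8) was 2.05 with quantile normalization and 2.14 with spike-in scaling. It was 0.91 with normexp background correction, 1.63 with the deposited normalized values, 2.33 with no floor, 2.65 over the 5 genes well above background on both arrays, and 1.21 over all 10 with no filter on dim probes. It was 2.52 with *Id3* left out, an alternative chosen after seeing the data. The median stayed above 0 in all of these. The number of members past the threshold (5) was 3 of 5 where both arrays had to be well above background, since fewer genes could be counted. It was 4 with normexp, with the deposited values and where the Z score was taken within bins of like signal, each without *Vsig4*. It was 6 with no floor, which added *Spic*, and 6 with a robust Z score, which added *Csf1r*. No single ratio of a member past the threshold changed sign. Over all genes, the robust Z score called 1722 higher and 1443 lower, beside 705 and 566, and no filter on dim probes called 1355 and 597 of 37071, with a median of all genes of -0.47, so the share of calls that were higher went from 55.5% to 69.4%. Z scores within bins of like signal gave 46.7%. No paired analysis was possible because each genotype had 1 array. Signal over background limits *Timd4*, *Cd163*, *Spic* and, in control cells, *Clec4f* and *Vsig4*. With 1 array per genotype, differences between mice, cultures and arrays cannot be told apart from genotype.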
